A study of Homo sapiens with 9 samples.

Results

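The proteasome genes described here are the genes whose symbol is PSM, followed by a letter from A to G and a number, in the lists of FPKM values (fragments per kilobase of exon, scaled by library depth) of 9 RNA sequencing libraries. This rule gave 46 of the 32906 listed genes. They were 7 constitutive alpha and 7 constitutive beta genes of the 20S core, 3 inducible beta genes, 6 ATPase and 3 non-ATPase genes of the base of the 19S regulatory particle, 8 lid genes, 3 base chaperones, 4 activators, 1 inhibitor and 4 core assembly chaperones. PSMA8 and PSMB11, core genes of the same nomenclature, were not analysed here.

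The cells carry the label Huh7, an established human hepatocellular carcinoma line, and were grown in DMEM with serum and antibiotics. They were transfected with a Scramble control siRNA, with Si-KDM4C#1 or with Si-KDM4C#2, and collected 48 hours later, with 3 libraries per group. Both siRNAs target KDM4C, a histone lysine demethylase, and the comparison asks how the genes of the proteasome stood in cells with less of its mRNA. The libraries held from 14597504 to 18058556 fragments, as recovered from the FPKM values and the exon lengths. The KDM4C mRNA lay at 4.88, 4.63 and 4.57 FPKM with Scramble siRNA, against 1.18, 1.102 and 1.13 FPKM under Si-KDM4C#1 and 0.256, 0.349 and 0.256 FPKM under Si-KDM4C#2. The groups did not overlap, and log2(FPKM + 1) fell by 1.41 and 2.15 (adjusted p = 2.65e-07 and 5.45e-08, limma-trend). This scale understates the fall of a gene at so low a level. Of 12 markers of hepatocytes, 9 were listed, and all 9 were under 1 FPKM in every library, with AFP at 0 in all libraries but 1. The label of the line is therefore given as the submitters wrote it. Of 4 listed leukocyte markers, all were under 1 FPKM. Of 5 fibroblast markers, COL1A2 and DCN were under 1 FPKM, while the summed level of the 5 lay between 47.4 and 51.0 FPKM in the Scramble libraries, 55.8 and 58.7 after Si-KDM4C#1 and 78.5 and 79.6 after Si-KDM4C#2, most of it from COL3A1. The expressed markers did not move together (log2 scale, limma-trend). COL3A1 rose by 0.47 after the first siRNA and 0.99 after the second (adjusted p = 1.38e-05 and 2.09e-07). LUM fell after the first (-0.81, adjusted p = 9.97e-05) and was at -0.16 after the second (adjusted p = 0.221). COL1A1 was at 0.05 after the first (adjusted p = 0.340) and rose after the second (0.22, adjusted p = 0.00279). The part of these markers in the results below was not tested. The labels do not say whether the 3 libraries of a group came from separate cultures, and a general statement in the methods that experiments were repeated independently does not name the sequencing, so the p-values measure the spread between libraries, which may be technical.

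The proteasome degrades proteins that carry ubiquitin. Its core is a barrel of alpha rings, which gate the entrance, and beta rings, which hold the proteolytic sites, and the regulatory particle on its ends recognises, unfolds and feeds the substrate. Other caps, the activators, open the core without the ATPases of the base, and interferon can replace the catalytic beta subunits by inducible ones. When proteasome activity falls short, the transcription factor NFE2L1 induces proteasome genes through antioxidant response elements in their promoters.

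Short stretches of promoters are shown here because such an element, written TGACNNNGC and searched on both strands, is the sequence through which proteasome genes are known to be induced together. The RefSeq promoter table (GRCh38.p14, 250 bases before to 50 after a start) matched 40 of the 46 genes by symbol, with 49 windows. Capitals mark the element or, where it lies on the other strand, its reverse complement, and each stretch is read 5′ to 3′ on the strand of the gene.
PSMB3: cgcctccgtttTGACTTTGCaaccaaacta
PSMD3: ttcccctttgtTGACTCGGCcatcggcctg
PSMC4: cacagaggccgGCTTGGTCActatggagga
PSME1: catggcagggcTGACCCCGCctcctccatc
PSME2: cccctggactgTGACCCAGCcagcaccgcc
PSME4: gcccggcggctGCAGCGTCAccagcagagc
These lie at chr17:38752626-38752655 and chr17:39980759-39980788 on the plus strand, chr19:39971181-39971210 on the plus strand, chr14:24136097-24136126 on the plus strand, chr14:24146767-24146796 on the minus strand and chr2:53971009-53971038 on the minus strand, in this order. The element occurred in 15 of the 49 windows (30.6%), against 13.3% of all 35116 promoter windows and 14.6% of those of the genes tested. Of the 4 activator windows, 3 held it. The stretches shown are a selection of the matches. Their genes each changed with either siRNA or both at the threshold given below. PSMA4, PSMC5, PSMD9, PSMD12 and PSMG2 also held the element and changed with neither. The match of PSMC4 begins 27 bases after the start. The sequence CCAAT, a common promoter element searched in the same way, occurred in 19 of 49 (38.8%), against 34.6% of all windows. A match is a description of letters and not of a bound site. Among the tested genes, 14 had the element in a window, of which 4 rose and 3 fell with Si-KDM4C#1 and 2 rose and 4 fell with Si-KDM4C#2. Of the 24 without it, 14 rose and 7 fell with Si-KDM4C#1, and 9 rose and 6 fell with Si-KDM4C#2. Of all tested genes, 31.7% rose and 33.9% fell after the first siRNA and 34.4% rose and 25% fell after the second. The shares with the element were 28.6%, 21.4%, 14.3% and 28.6% in this order, and those without it 58.3%, 29.2%, 37.5% and 25%, and the difference between them was not tested.

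The genes were compared on log2(FPKM + 1) with limma-trend across 14363 genes, those that averaged 1 FPKM or more in any group, and a change is called at an adjusted p below 0.05. Of the 46 genes, 44 passed this filter. PSMB8 and PSMB9 did not. With Si-KDM4C#1, 23 of the 44 rose and 11 fell, against 31.7% of all tested genes that rose and 33.9% that fell. The shares among the proteasome genes were 52.3% and 25%. Their median difference was 0.19 on the log2 scale, beside -0.03 over all genes tested. With Si-KDM4C#2, 15 rose and 10 fell, against 34.4% and 25% of all tested genes, with a median of 0.04 beside 0.06. The share that rose with Si-KDM4C#2 was 34.1%, near the background. These splits depend on the scaling of the libraries, since after quantile normalization Si-KDM4C#1 gave 19 higher and 16 lower and Si-KDM4C#2 gave 12 higher and 18 lower. After median-ratio scaling 13 rose and 15 fell with Si-KDM4C#2, by limma voom on recovered fragments 13 and 13, and after adjusting each library for GC content by lowess 27 rose and 7 fell with Si-KDM4C#1. The shares of all tested genes called under these alternatives are not given here or below. After quantile normalization the medians of the proteasome genes were 0.05 with Si-KDM4C#1 and -0.08 with Si-KDM4C#2, beside 0.01 over all genes with each. No proteasome gene changed more than 2-fold with either siRNA by limma-trend as described above (0 of 44, also at an unadjusted p under 0.05), against 4.04% of all tested genes that rose and 4.83% that fell by that much after the first siRNA and 2.6% and 2.3% after the second, while limma voom and limma-trend with a pseudocount of 0.1 called 2 and 1 after the first siRNA, and limma-trend after quantile normalization called 1 after the second. The mean FPKM of PSMB10, a low gene, fell more than 2-fold with Si-KDM4C#1 (2.04 to 0.864), against -0.71 on the log2(FPKM + 1) scale. Since these are bulk samples, fewer cells of a type and less RNA per cell cannot be told apart.

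**Figure D1:**
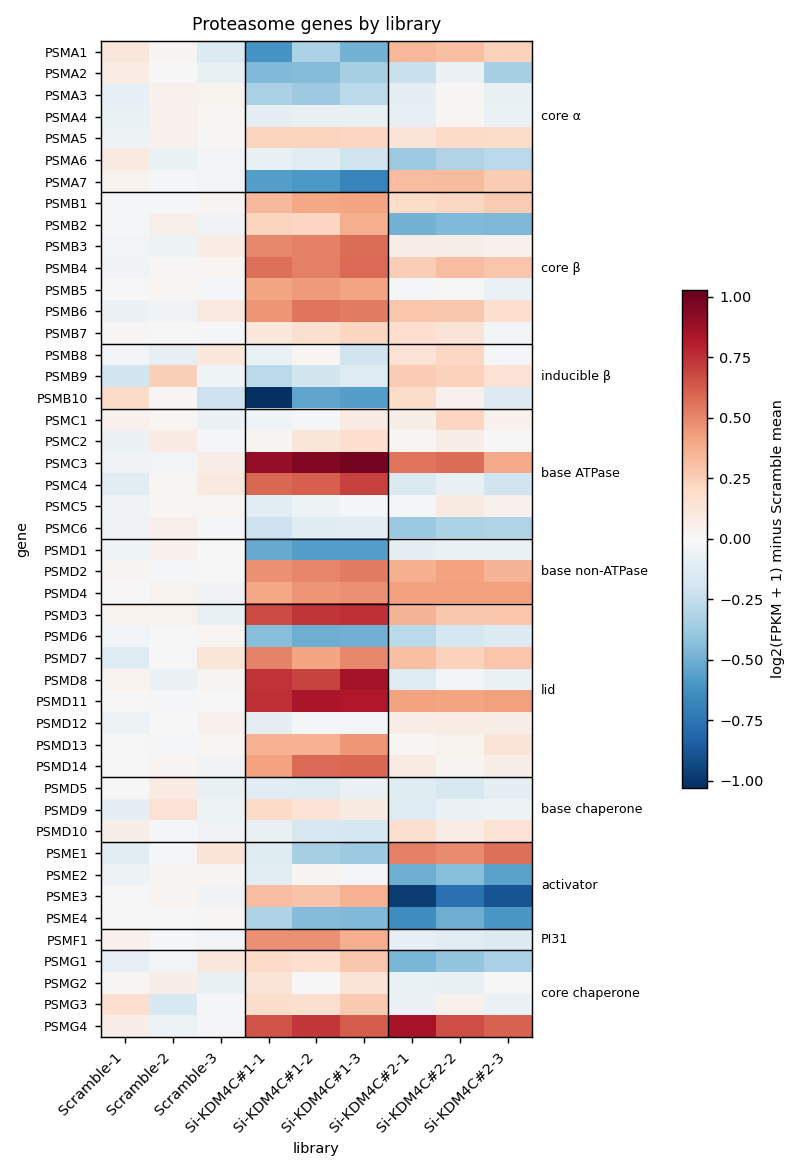
Level of each of the 46 genes in each of the 9 libraries, as log2(FPKM + 1) minus the mean of the Scramble libraries, with genes in rows by their role and libraries in columns. The beta genes PSMB3, PSMB4 and PSMB6 are red in all Si-KDM4C#1 libraries, PSMA7 and PSMD1 are blue there, and PSME3 is blue only in the Si-KDM4C#2 libraries.

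**Figure D2:**
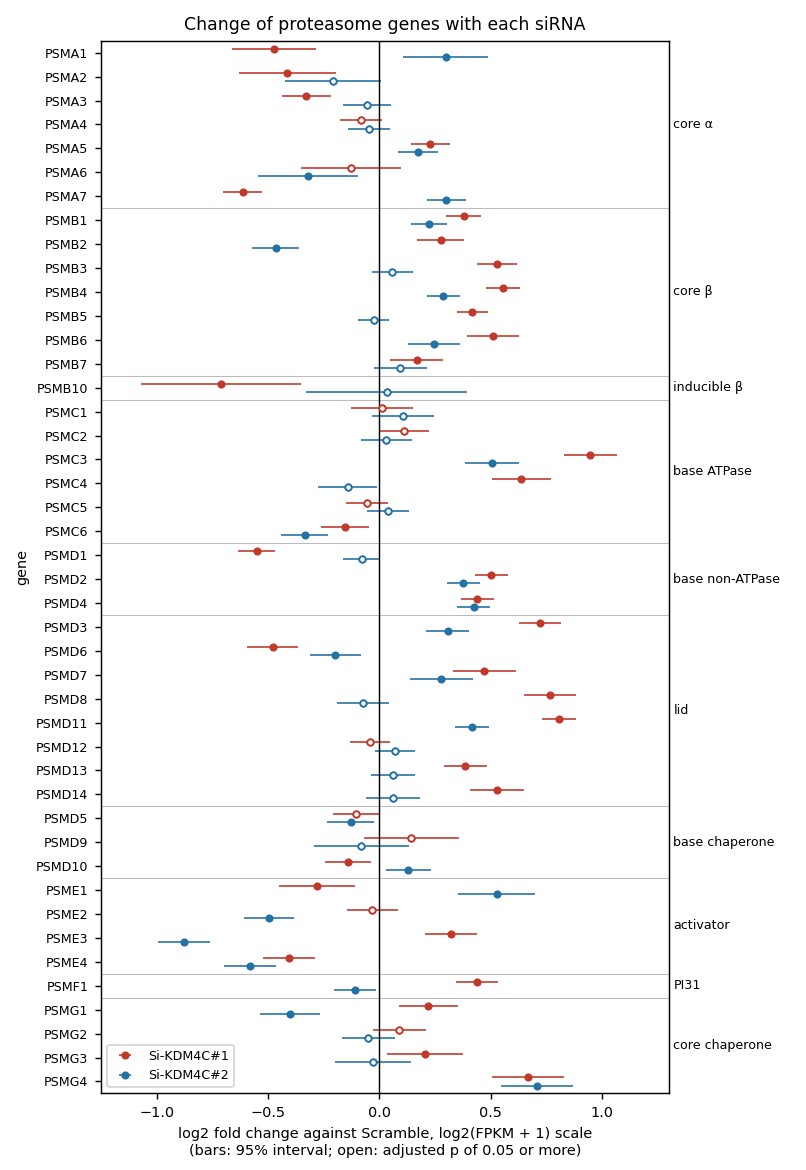
Log2 fold change against Scramble of the 44 tested genes with Si-KDM4C#1 (red) and Si-KDM4C#2 (blue), with 95% intervals as bars and open points where the adjusted p was 0.05 or more. With Si-KDM4C#1 the constitutive beta genes lie between 0.17 and 0.55, and the alpha genes between -0.62 and 0.23.

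The beta genes of the core rose together with Si-KDM4C#1. All 7 passed the test, with a median of 0.42 on the log2 scale, although after quantile normalization 5 passed, PSMB7 turned to -0.03 and PSMB2 was at 0.08. Si-KDM4C#2 raised 3 of the 7, PSMB1, PSMB4 and PSMB6, and lowered PSMB2, a share near the 34.4% of all tested genes that rose, with a median of 0.09. After quantile normalization 2 rose and 3 fell, with a median of -0.04, and the call of PSMB1 ended (0.22 to 0.09, adjusted p = 0.0526). After the GC adjustment 2 rose and 2 fell. The summed level of the 7 was 505 ± 10.4 FPKM (SD, n = 3) with Scramble siRNA, against 688 ± 15.5 under Si-KDM4C#1 and 542 ± 11.0 under Si-KDM4C#2. FPKM divides by the exon length of a gene, which in the core ran from 1179 bases for PSMB3 to 6996 for PSMA4. Sums and ratios over genes depend on these lengths and are not amounts of mRNA.

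PSMB5, PSMB6 and PSMB7 encode the catalytic subunits with chymotrypsin-like, caspase-like and trypsin-like activity. PSMB5 lay at 79.0, 80.0 and 77.9 FPKM in the Scramble libraries, 105, 107 and 105 after Si-KDM4C#1 and 78.3, 79.0 and 75.4 after Si-KDM4C#2. The Si-KDM4C#1 libraries were all above the others, and the log2 fold change was 0.42 ± 0.03 (SE, adjusted p = 1.97e-06) with Si-KDM4C#1 and -0.03 ± 0.03 (95% interval -0.10 to 0.04, adjusted p = 0.498) with Si-KDM4C#2, where it passed the test, lower, after quantile normalization (-0.15), median-ratio scaling (-0.10) and GC adjustment (-0.14). PSMB6 lay at 68.6, 70.1 and 76.8 FPKM with Scramble siRNA, against 98.4, 106 and 104 under Si-KDM4C#1 and 87.8, 87.2 and 80.9 under Si-KDM4C#2. It rose with both, by 0.51 (adjusted p = 1.76e-05) and 0.25 (adjusted p = 0.00274), and the call with Si-KDM4C#2 ended after the GC adjustment (0.10). PSMB7 lay at 70.2, 69.8 and 69.2 FPKM in the Scramble libraries, 75.3, 78.5 and 81.4 after Si-KDM4C#1 and 78.9, 76.4 and 68.5 after Si-KDM4C#2. Its increase with Si-KDM4C#1 was the smallest of the 7 (0.17, adjusted p = 0.0187) and lost the call without Si-KDM4C#1 replicate 3 (0.14, adjusted p = 0.0679).

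The structural beta genes PSMB4 and PSMB3 changed most in this ring with Si-KDM4C#1. PSMB3, whose product lines the beta ring, lay at 128, 126 and 138 FPKM with Scramble siRNA, against 184, 187 and 195 under Si-KDM4C#1 and 137, 136 and 135 under Si-KDM4C#2, and had the highest FPKM of the 46 in the Scramble group. Its fold change was 0.53 ± 0.04 with Si-KDM4C#1 (adjusted p = 2.44e-06) and 0.06 with Si-KDM4C#2 (adjusted p = 0.244), and after quantile normalization the latter passed the test the other way (-0.09, adjusted p = 0.0430). PSMB4 lay at 81.5, 84.6 and 85.1 FPKM in the Scramble libraries, 124, 120.3 and 126 after Si-KDM4C#1 and 100.1, 105 and 102 after Si-KDM4C#2. The 3 groups did not overlap, and it rose by 0.55 and 0.29 (adjusted p = 5.33e-07 and 6.39e-05). PSMB2 was the exception with Si-KDM4C#2, at 34.4, 36.0 and 33.8 FPKM with Scramble siRNA, against 40.8, 40.6 and 45.3 under Si-KDM4C#1 and 24.5, 25.1 and 25.0 under Si-KDM4C#2. It rose by 0.27 with the former (adjusted p = 6.00e-04), a call that quantile normalization ended, and fell with the latter (-0.47, adjusted p = 2.38e-05).

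The inducible beta genes, which replace PSMB5, PSMB6 and PSMB7 after interferon, were close to the filter. PSMB10 lay at 2.47, 2.04 and 1.61 FPKM in the Scramble libraries, 0.478, 1.07 and 1.04 after Si-KDM4C#1 and 2.44, 2.12 and 1.74 after Si-KDM4C#2, from 16 to 70 fragments in each library. It fell with Si-KDM4C#1 (-0.71 ± 0.16, adjusted p = 0.00318) and was at 0.03 with Si-KDM4C#2 (adjusted p = 0.876), a value that was negative under median-ratio scaling, voom and GC adjustment. PSMB9 lay at 0.323, 0.798 and 0.475 FPKM with Scramble siRNA, against 0.252, 0.335 and 0.385 under Si-KDM4C#1 and 0.819, 0.795 and 0.687 under Si-KDM4C#2, and PSMB8 had means of 0.225, 0.156 and 0.325 FPKM. Both were under the filter and were not tested. PSMB8, PSMB9 and PSMB10 made up 1.25% ± 0.166 (SD, n = 3) of the summed FPKM of the 6 catalytic genes in the Scramble libraries, 0.464% ± 0.127 after Si-KDM4C#1 and 1.32% ± 0.150 after Si-KDM4C#2. The Si-KDM4C#1 libraries were the 3 lowest. Of the coding bases of PSMB10, 59.95% are shared with another gene on the same strand in GENCODE release 29, so part of its reads cannot be told apart from that gene.

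**Figure D3:**
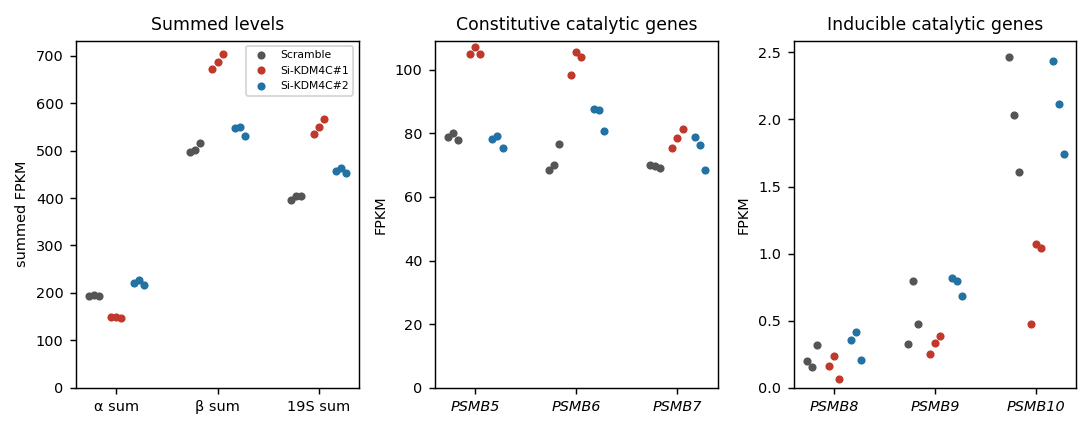
Summed FPKM of the alpha, beta and 19S genes (left), and FPKM of the constitutive (middle) and inducible (right) catalytic genes, each point a library and each group in its own colour, on axes that start at 0. The beta sum is highest in the 3 Si-KDM4C#1 libraries, the alpha sum is lowest there, and PSMB10 does not overlap between Scramble and Si-KDM4C#1.

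With Si-KDM4C#1 the alpha genes did not follow the beta genes. Of the 7 alpha genes, 14.3% rose and 57.1% fell with it, beside 31.7% and 33.9% of all tested genes. With Si-KDM4C#2, 42.9% rose and 14.3% fell in either group, beside 34.4% and 25% of all tested genes. With Si-KDM4C#1, PSMA1, PSMA2, PSMA3 and PSMA7 fell and PSMA5 rose, with a median of -0.33 on the log2 scale, and after the GC adjustment 2 rose and 2 fell, with PSMA1 and PSMA7 still lower and a median of -0.07. The call of PSMA5 ended after quantile normalization (0.23 to 0.10, adjusted p = 0.0803). With Si-KDM4C#2, PSMA1, PSMA5 and PSMA7 rose and PSMA6 fell, and the median was -0.05, or 0.05 after the GC adjustment. The rise of PSMA5 with Si-KDM4C#2 (0.17) ended after quantile normalization (0.07), median-ratio scaling (0.10) and by voom (0.12), with adjusted p of 0.184, 0.0755 and 0.0681. PSMA7, a subunit of the outer ring, had the highest FPKM of the alpha genes. It lay at 109, 105 and 104 FPKM with Scramble siRNA, against 71.1, 70.1 and 65.6 under Si-KDM4C#1 and 132, 133 and 127 under Si-KDM4C#2. The groups were separate, with Si-KDM4C#1 below and Si-KDM4C#2 above Scramble (-0.62 ± 0.04, adjusted p = 6.67e-07, and 0.30 ± 0.04, adjusted p = 1.24e-04). The alpha sum was 195 ± 1.74 FPKM (SD, n = 3) in the Scramble libraries, 149 ± 2.21 after Si-KDM4C#1 and 221 ± 5.19 after Si-KDM4C#2, and without PSMA7 it was 88.5 ± 2.69, 79.7 ± 0.801 and 89.9 ± 2.97. The beta sum exceeded the alpha sum 2.60-fold with Scramble siRNA, against 4.63-fold under Si-KDM4C#1 and 2.46-fold under Si-KDM4C#2, and without PSMA7 5.71-fold, 8.62-fold and 6.04-fold. These are ratios of FPKM, which depend on the exon lengths of the genes, and they carry no test. The alpha sum also includes PSMA1, PSMA2 and PSMA6, whose coding bases are mostly shared with another gene, as given below. Those of the constitutive beta genes are not.

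Of the other alpha genes, PSMA1 lay at 9.05, 8.44 and 7.41 FPKM in the Scramble libraries, 5.08, 6.39 and 5.62 after Si-KDM4C#1 and 10.7, 10.5 and 9.94 after Si-KDM4C#2. It fell with Si-KDM4C#1 (-0.47, adjusted p = 7.29e-04) and rose with Si-KDM4C#2 (0.30, adjusted p = 0.0126). PSMA2 was low in all libraries, at 2.098, 1.93 and 1.78 FPKM with Scramble siRNA, against 1.14, 1.16 and 1.32 under Si-KDM4C#1 and 1.499, 1.82 and 1.32 under Si-KDM4C#2. Its fall with Si-KDM4C#1 (-0.41, adjusted p = 0.00380) lost the call after the GC adjustment (-0.16). PSMA6 lay at 1.26, 1.02 and 1.08 FPKM in the Scramble libraries, 1.01, 0.969 and 0.842 after Si-KDM4C#1 and 0.635, 0.711 and 0.748 after Si-KDM4C#2, and it fell with Si-KDM4C#2 (-0.32, adjusted p = 0.0202), a call that ended without Scramble replicate 1 (-0.27, adjusted p = 0.0667) or Si-KDM4C#2 replicate 1 (-0.29, adjusted p = 0.0596), and after the GC adjustment (-0.25, adjusted p = 0.0501). These low levels stand beside overlaps in the annotation. Another gene on the same strand shares 100% of the coding bases of PSMA2, 88.6% of those of PSMA1 and 87.6% of those of PSMA6, whereas none of those of PSMA7 is shared. How fragments in shared bases were counted is not given in the sources used here, and their part in these values was not tested.

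In the regulatory particle the lid genes mostly rose with Si-KDM4C#1. The share of its ATPase genes that rose was 33.3%, near the 31.7% of all tested genes, with a median of 0.06 on the log2 scale. The 17 genes of the base and lid summed to 401 ± 5.45 FPKM (SD, n = 3) with Scramble siRNA, against 551 ± 15.7 under Si-KDM4C#1 and 458 ± 5.81 under Si-KDM4C#2. Among the 6 ATPases, which unfold the substrate, PSMC3 and PSMC4 rose and PSMC6 fell with Si-KDM4C#1, although after the GC adjustment PSMC6 was higher (0.12) and without Scramble replicate 2 or Si-KDM4C#1 replicate 1, or by voom, its call ended (-0.13, -0.12 and -0.11). PSMC1, PSMC2 and PSMC5 passed the test with neither siRNA, but with Si-KDM4C#1 PSMC2 passed, higher, by voom (0.18), after the GC adjustment (0.34) and without Scramble replicate 2 or Si-KDM4C#1 replicate 1 (both 0.15), and PSMC5 passed, lower, after quantile normalization (-0.22). PSMC3 lay at 26.0, 26.2 and 28.0 FPKM in the Scramble libraries, 51.0, 52.6 and 53.8 after Si-KDM4C#1 and 39.6, 40.3 and 35.4 after Si-KDM4C#2. Its fold change with Si-KDM4C#1 was the largest of the 44 (0.95 ± 0.05, adjusted p = 3.33e-07), and it rose less with Si-KDM4C#2 (0.50, adjusted p = 3.14e-05). PSMC4 lay at 34.1, 37.6 and 39.7 FPKM with Scramble siRNA, against 56.3, 57.4 and 60.8 under Si-KDM4C#1 and 33.4, 35.1 and 32.1 under Si-KDM4C#2. It rose with Si-KDM4C#1 (0.64, adjusted p = 8.72e-06) and was at -0.14 with Si-KDM4C#2 (adjusted p = 0.0619), which passed the test, still lower, after median-ratio scaling (-0.22), quantile normalization and GC adjustment.

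Of the non-ATPase genes of the base, PSMD2, a scaffold, and PSMD4, a ubiquitin receptor, rose with both siRNAs. PSMD2 lay at 47.2, 45.7 and 46.2 FPKM in the Scramble libraries, 64.8, 66.2 and 67.4 after Si-KDM4C#1 and 60.1, 62.0 and 59.5 after Si-KDM4C#2 (0.50 and 0.38, adjusted p = 7.62e-07 and 8.28e-06). PSMD4 lay at 46.3, 47.5 and 45.3 FPKM with Scramble siRNA, against 61.2, 63.9 and 64.6 under Si-KDM4C#1 and 62.5, 62.5 and 62.5 under Si-KDM4C#2 (0.44 and 0.42, adjusted p = 2.20e-06 and 4.66e-06). The other scaffold, PSMD1, went the other way with Si-KDM4C#1. It lay at 21.5, 22.9 and 22.04 FPKM in the Scramble libraries, 15.1, 14.6 and 14.6 after Si-KDM4C#1 and 20.6, 21.0 and 21.0 after Si-KDM4C#2, a fall with Si-KDM4C#1 (-0.55 ± 0.04, adjusted p = 9.55e-07) and a value of -0.08 with Si-KDM4C#2 (adjusted p = 0.0880) that passed the test, still lower, after quantile normalization (-0.20), median-ratio scaling (-0.15) and by voom (-0.15).

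In the lid, which removes ubiquitin chains, 6 of 8 genes rose and PSMD6 fell with Si-KDM4C#1, with a median of 0.50, and 3 rose and PSMD6 fell with Si-KDM4C#2, with a median of 0.06 that turned to -0.03 after quantile normalization and to -0.0055 after median-ratio scaling. The 75% that rose with Si-KDM4C#1 stand beside 31.7% of all tested genes, and the 37.5% with Si-KDM4C#2 are near the 34.4% of all tested genes. PSMD11 lay at 21.5, 21.3 and 21.5 FPKM with Scramble siRNA, against 36.8, 39.2 and 38.7 under Si-KDM4C#1 and 28.9, 28.7 and 29.1 under Si-KDM4C#2. The 3 groups did not overlap (0.81 and 0.42, adjusted p = 6.68e-08 and 6.38e-06). PSMD3 lay at 35.0, 34.8 and 32.3 FPKM in the Scramble libraries, 54.8, 57.2 and 57.9 after Si-KDM4C#1 and 43.7, 41.4 and 41.7 after Si-KDM4C#2 (0.72 and 0.31, adjusted p = 4.45e-07 and 1.99e-04). PSMD8 differed most between the siRNAs in the lid, at 26.3, 24.5 and 26.2 FPKM with Scramble siRNA, against 43.4, 42.0 and 47.3 under Si-KDM4C#1 and 23.3, 25.1 and 24.4 under Si-KDM4C#2. It rose with Si-KDM4C#1 (0.76, adjusted p = 1.07e-06), was at -0.07 with Si-KDM4C#2 (adjusted p = 0.241) and differed between them by -0.84 ± 0.05 (adjusted p = 7.96e-07). With Si-KDM4C#2 it passed the test, lower, after quantile normalization (-0.21), median-ratio scaling (-0.15) and GC adjustment (-0.25). PSMD14, the deubiquitinating enzyme of the lid, lay at 7.81, 7.92 and 7.57 FPKM in the Scramble libraries, 10.7, 12.1 and 12.2 after Si-KDM4C#1 and 8.31, 7.95 and 8.15 after Si-KDM4C#2, and rose with Si-KDM4C#1 (0.53, adjusted p = 1.74e-05).

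The activators moved apart from each other. PSME1 and PSME2 encode the subunits of PA28, which interferon induces, and lie beside each other on chromosome 14, from 24136158 to 24138967 and from 24143362 to 24147570 in GRCh38. PSME1 lay at 47.2, 50.7 and 56.2 FPKM with Scramble siRNA, against 46.8, 40.2 and 39.3 under Si-KDM4C#1 and 73.9, 72.3 and 76.4 under Si-KDM4C#2. It fell with Si-KDM4C#1 (-0.28, adjusted p = 0.00877) and rose with Si-KDM4C#2 (0.53 ± 0.08, adjusted p = 2.51e-04). PSME2 lay at 16.6, 17.6 and 17.6 FPKM in the Scramble libraries, 15.9, 17.7 and 17.1 after Si-KDM4C#1 and 11.9, 12.5 and 11.5 after Si-KDM4C#2. It was at -0.03 with Si-KDM4C#1 (adjusted p = 0.596) and fell with Si-KDM4C#2 (-0.50 ± 0.05, adjusted p = 2.32e-05). The FPKM of PSME1 exceeded that of PSME2 2.97-fold with Scramble siRNA, against 2.505-fold under Si-KDM4C#1 and 6.22-fold under Si-KDM4C#2.

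PSME3 encodes PA28 gamma, a nuclear activator, and PSME4 encodes PA200. PSME3, on chromosome 17 from 42824385 to 42843758, lay at 46.6, 47.5 and 45.4 FPKM in the Scramble libraries, 58.1, 57.1 and 60.0 after Si-KDM4C#1 and 23.1, 26.9 and 24.6 after Si-KDM4C#2. It rose with Si-KDM4C#1 (0.32 ± 0.05, adjusted p = 3.87e-04) and fell with Si-KDM4C#2 (-0.88 ± 0.05, adjusted p = 8.04e-07), the largest absolute change of the 44 with Si-KDM4C#2. PSME4 lay at 14.9, 14.8 and 15.04 FPKM with Scramble siRNA, against 11.8, 10.7 and 10.6 under Si-KDM4C#1 and 9.23, 10.2 and 9.52 under Si-KDM4C#2, and fell with both (-0.41 and -0.58, adjusted p = 8.59e-05 and 1.11e-05). Of the activators whose promoter stretch is shown above, PSME2 and PSME4 fell and PSME1 rose with Si-KDM4C#2.

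PSMF1 encodes PI31, which inhibits the core in vitro. It lay at 13.7, 13.1 and 13.0 FPKM in the Scramble libraries, 18.7, 18.7 and 17.5 after Si-KDM4C#1 and 12.4, 12.3 and 11.95 after Si-KDM4C#2. It rose with Si-KDM4C#1 (0.44, adjusted p = 1.15e-05), and its fall with Si-KDM4C#2 was close to the limit (-0.11, adjusted p = 0.0464) and ended without any library other than Si-KDM4C#1 replicate 3, at -0.12 to -0.09 with adjusted p from 0.0563 to 0.134.

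Of the chaperones that assemble the core, PSMG4 rose with both siRNAs and PSMG1 went opposite ways. PSMG4 lay at 2.62, 2.33 and 2.44 FPKM with Scramble siRNA, against 4.43, 4.72 and 4.34 under Si-KDM4C#1 and 5.22, 4.48 and 4.28 under Si-KDM4C#2 (0.67 and 0.71, adjusted p = 2.61e-05 and 2.56e-05). PSMG1 lay at 35.7, 37.3 and 41.2 FPKM in the Scramble libraries, 43.8, 43.0 and 46.3 after Si-KDM4C#1 and 27.1, 28.5 and 29.97 after Si-KDM4C#2 (0.22 and -0.40, adjusted p = 0.00865 and 2.74e-04), and the rise with Si-KDM4C#1 ended after quantile normalization (0.03). PSMG3 lay at 28.1, 22.2 and 24.7 FPKM with Scramble siRNA, against 28.3, 28.0 and 30.2 under Si-KDM4C#1 and 23.8, 25.6 and 23.7 under Si-KDM4C#2, and its rise with Si-KDM4C#1 (0.21, adjusted p = 0.0371) ended without Scramble replicate 2 or 3 or any Si-KDM4C#1 library, at 0.13 to 0.22 with adjusted p from 0.0546 to 0.126. It also ended after quantile normalization (0.03, adjusted p = 0.752) and GC adjustment (0.02, adjusted p = 0.774), with a replicate block (adjusted p = 0.0551), without a filter and with the compared groups alone. Among the chaperones of the base, PSMD10, also known as gankyrin, lay at 27.6, 26.0 and 25.8 FPKM in the Scramble libraries, 25.1, 23.5 and 23.2 after Si-KDM4C#1 and 29.8, 27.9 and 29.4 after Si-KDM4C#2 (-0.14 and 0.13, adjusted p = 0.0200 and 0.0325). Its direction turned with Si-KDM4C#1 after the GC adjustment (0.04) and with Si-KDM4C#2 after quantile normalization (-0.0011). Both of its calls ended by voom (-0.08 and 0.07), and that with Si-KDM4C#2 also after median-ratio scaling (0.06) and without a filter. Its call with Si-KDM4C#1 ended without Scramble replicate 1 or Si-KDM4C#1 replicate 2 or 3 (-0.13 to -0.11), and that with Si-KDM4C#2 without Scramble replicate 2 or 3 or Si-KDM4C#2 replicate 1 or 3 (0.11 to 0.12). PSMD5 fell with Si-KDM4C#2 (-0.13, adjusted p = 0.0381), a call that ended without any library other than Scramble replicate 3 or Si-KDM4C#1 replicate 3, at -0.14 to -0.09 with adjusted p from 0.0512 to 0.139. It also ended after the GC adjustment (-0.07, adjusted p = 0.240), with a replicate block (adjusted p = 0.0654), without a filter and with the compared groups alone. PSMD9 was at 0.14 and -0.08 and passed with neither siRNA, from a mean of 1.25 FPKM with Scramble, but with Si-KDM4C#1 it passed, higher, after quantile normalization (0.31) and by voom (0.32).

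The siRNAs share the Scramble libraries, so their comparisons are not independent, and their values are set side by side. Of the 44 genes, 11 rose with both siRNAs, as did 19.4% of all tested genes, and 3 fell with both (PSMC6, PSMD6 and PSME4), as did 15.2%. PSMA1, PSMA7, PSMD10 and PSME1 fell with Si-KDM4C#1 and rose with Si-KDM4C#2, and PSMB2, PSMF1, PSMG1 and PSME3 did the reverse. Such opposite pairs of calls were found in 5.66% and 4.11% of all tested genes. The direct comparison of Si-KDM4C#2 with Si-KDM4C#1 found 9 genes higher and 23 lower, against 35.9% and 26.5% of all tested genes, and a median of -0.17 beside 0.08 over all tested genes. By limma-trend on log2(FPKM + 1), PSME3 was the only one of the 44 that differed more than 2-fold between the siRNAs (-1.20 ± 0.05). Of all tested genes, 4.41% were higher and 2.49% were lower by that much. The mean FPKM of PSMB10 was also more than 2-fold higher with Si-KDM4C#2 than with Si-KDM4C#1. Its difference on the log2(FPKM + 1) scale was 0.74, since the gene is low. With a pseudocount of 0.1 or limma voom more genes passed 2-fold, as given below. KDM4C itself was lower with Si-KDM4C#2, by 0.73 on the log2(FPKM + 1) scale, which understates differences at its low level. With both siRNAs pooled against Scramble, 19 of the 44 rose and 11 fell, against 32.6% and 30.8% of all tested genes. After quantile normalization these were 13 and 16, and after the GC adjustment 22 and 7, again without the shares of all tested genes.

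**Figure D4:**
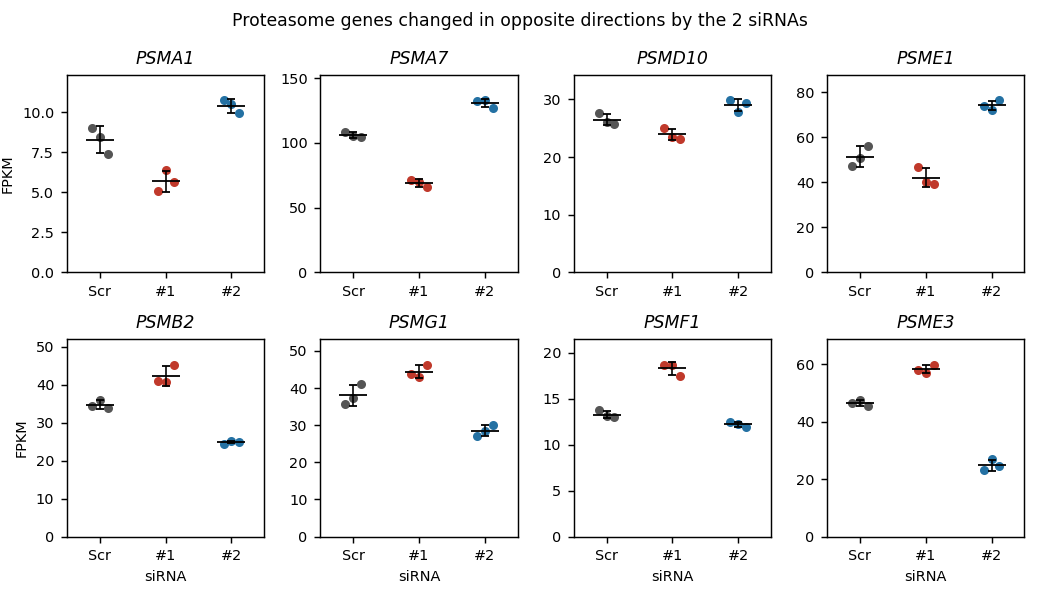
FPKM of the 8 genes called in opposite directions with the siRNAs, for Scramble (Scr), Si-KDM4C#1 (#1) and Si-KDM4C#2 (#2), with each library as a point and the mean ± SD (n = 3) in black, on axes that start at 0. The upper genes are lowest with Si-KDM4C#1, the lower ones highest, and PSMA7 and PSME3 show the clearest separation of the 3 groups.

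Fold changes followed the GC content of transcripts. Over the 14343 tested genes with a GC value, Spearman's rho between log2 fold change and GC content was 0.33 for Si-KDM4C#1 and 0.32 for Si-KDM4C#2, and over the 44 proteasome genes 0.45 and 0.34. These are correlations across genes, which share libraries and are not independent replicates. After that GC adjustment, rho over the proteasome genes was 0.20 and -0.01. All 7 beta genes were called higher with Si-KDM4C#1 after this adjustment, with a median of 0.41, while the alpha median moved from -0.33 to -0.07.

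**Figure D5:**
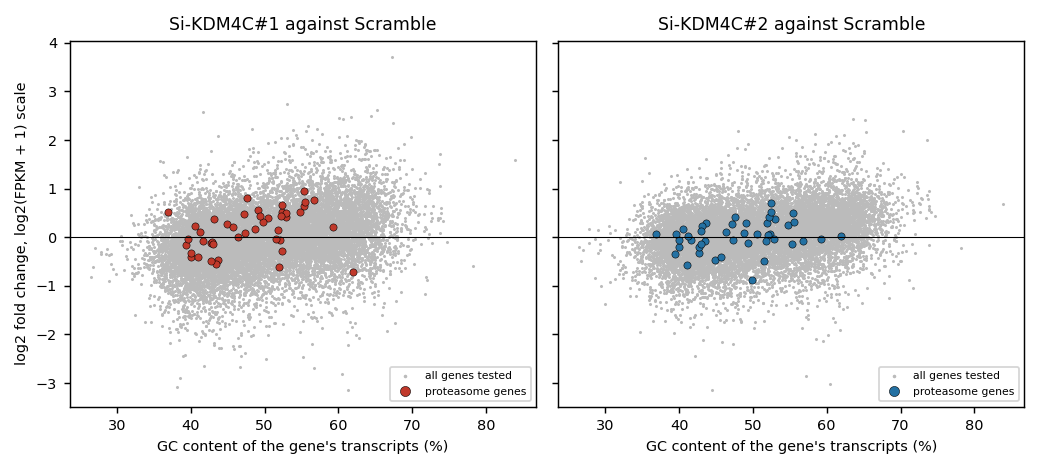
Log2 fold change against the GC content of transcripts for all tested genes (grey) and for the 44 proteasome genes (coloured), with Si-KDM4C#1 on the left and Si-KDM4C#2 on the right. Both clouds rise with GC content, and rho over all genes was 0.33 and 0.32.

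Other genes of the pathway, 40 in all and chosen by function, are given by count. With Si-KDM4C#1, 22 of the 40 rose and 12 fell, and with Si-KDM4C#2 15 rose and 11 fell, with medians of 0.22 and 0.04. These are 55% and 30% with Si-KDM4C#1, beside 31.7% and 33.9% of all tested genes, and 37.5% and 27.5% with Si-KDM4C#2, near the 34.4% and 25% of all tested genes. The gene with the largest mean change is given for the NFE2L1 axis, the other proteasome-bound factors and the immunoproteasome axis. NFE2L1, the transcription factor that induces proteasome genes, lay at 25.8, 24.1 and 24.8 FPKM in the Scramble libraries, 49.5, 52.1 and 48.4 after Si-KDM4C#1 and 47.1, 43.4 and 45.3 after Si-KDM4C#2 (0.98 and 0.84, adjusted p = 9.48e-08 and 4.38e-07). NGLY1, the glycanase that NFE2L1 needs to become active, was chosen after its values were seen. It lay at 9.75, 9.69 and 10.1 FPKM with Scramble siRNA, against 4.68, 4.70 and 4.16 under Si-KDM4C#1 and 5.53, 5.85 and 5.82 under Si-KDM4C#2, below Scramble in all knockdown libraries (-0.98 and -0.69, adjusted p = 2.57e-07 and 3.91e-06). ECPAS, which binds the proteasome, fell from a mean of 24.9 to 13.0 and 20.4 FPKM (-0.89 and -0.27, adjusted p = 1.67e-07 and 5.43e-04). TAP2, a transporter of the peptides that proteasomes make, rose with both (0.56 and 0.37, adjusted p = 1.07e-04 and 0.00207).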

How the data were processed

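RNA from 9 libraries of cells labelled Huh7 (3 groups of 3) was prepared with the NEBNext Ultra kit and sequenced paired-end on a NovaSeq. The authors deposited 1 list per library of FPKM values, scaled by exon length and mapped fragments. The submitters' processing notes name FastQC 0.11.5, HISAT2 2.1.0, StringTie 1.3.3b, DESeq 1.28.0 and featureCounts with GRCh38, without their roles, and the annotation and the strand of counting are not given in the sources used here. Without strand, reads of overlapping genes on opposite strands cannot be told apart, which concerns 47.7% of the coding bases of PSMC1.

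FPKM times the exon length of GENCODE release 29 came out as whole fragments (within 0.05) in all libraries for 32080 of 32906 genes, and from 97.4% to 97.5% of the values above 0 in each library. Depth comes from these fragments.

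Genes that averaged 1 FPKM or more in any group were compared on log2(FPKM + 1) with limma-trend (limma 3.58.1, R 4.3.3) in 1 fit of all libraries without covariates, with Benjamini-Hochberg adjustment over all 14363 genes. Fold changes on this scale understate those of low genes. On simulated data 200 genes changed 4-fold and 200 changed 1.5-fold with each siRNA among 13544 genes. Of these, limma-trend called 198 and 182 for Si-KDM4C#1, and 199 and 183 for Si-KDM4C#2. It also called 15 and 21 genes that were not changed. A far larger share of genes was called in the data, a setting that the simulation did not cover. Python 3.11.15 served for fragments, promoters and plots.

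The named genes are the catalytic genes and their inducible counterparts, the activators, in each other group the 2 with the largest mean change and the 2 with the largest difference between siRNAs, and in each partner group the gene with the largest mean change, which for some groups is not reported here. The members and lists were chosen with earlier results of these data known. Same-numbered libraries did not deviate together (mean correlation 0.02 over 9 pairs, range -0.05 to 0.05), so the numbers were not taken as pairs. Alternatives were quantile normalization, median-ratio scaling, a pseudocount of 0.1, other filters, the compared groups alone, a replicate block, limma voom on recovered fragments, a lowess adjustment for GC content, an adjusted p below 0.01, and leaving out each library.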

Additional observations from a re-analysis of the deposited data

Results flagged for a closer look

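In 8 genes the siRNAs changed the level in opposite directions against the shared Scramble libraries. Of all tested genes, 5.66% fell with Si-KDM4C#1 and rose with Si-KDM4C#2, and 4.11% did the reverse. The difference between the siRNAs also passed the test in the 8 genes. Their choice by opposite calls nearly fixed this in advance, so its p-values add no support. Given as Si-KDM4C#2 against Si-KDM4C#1 on the log2 scale, the difference was 0.91 for PSMA7 (adjusted p = 8.45e-08, limma-trend), 0.81 for PSME1 (adjusted p = 1.21e-05), 0.77 for PSMA1 (adjusted p = 3.20e-05) and 0.27 for PSMD10 (adjusted p = 5.63e-04). It was -1.20 for PSME3 (adjusted p = 9.17e-08), -0.74 for PSMB2 (adjusted p = 9.36e-07), -0.62 for PSMG1 (adjusted p = 1.27e-05) and -0.55 for PSMF1 (adjusted p = 3.13e-06). For PSMD10, PSMF1, PSMB2 and PSMG1, a call against Scramble ended under at least 1 alternative at the same threshold.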

How the results depend on the processing

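The number of proteasome genes passing the test, counted over both directions, stayed within 1.5 times under every alternative run. Leaving out 1 library gave 31 to 34 with Si-KDM4C#1, 21 to 25 with Si-KDM4C#2, 28 to 32 between the siRNAs and 27 to 30 with both together. With the replicate number as a block, 33, 24, 32 and 28 passed, and no count over both directions moved by over 1.5 times. The split by direction was less stable. With Si-KDM4C#2, 15 rose and 10 fell in the fit described above. After quantile normalization these were 12 and 18, and after median-ratio scaling 13 and 15. The number that also changed 2-fold was 1 with Si-KDM4C#1 and 2 between the siRNAs with a pseudocount of 0.1, 2 and 3 with limma voom, and 1 with Si-KDM4C#2 after quantile normalization, against 0, 1 and 0 in the fits described above. Over 111 comparisons of named genes, 857 of 941 values under alternatives other than left-out libraries kept their direction and side of the threshold, 26 lost the call, 37 gained it and 21 turned. Of 945 values with a library left out, 892 kept both.

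The cause of the turns was not tested. With quantile normalization the fold change turned for PSMA6 (0.0609) and PSMB7 (-0.0259) with Si-KDM4C#1, for PSMB3 (-0.0940), PSMB7 (-0.0394), PSMD10 (-0.00111) and PSMD14 (-0.00257) with Si-KDM4C#2, and for PSMD4 (0.0184) and PSMG4 (-0.0818) between the siRNAs. With median-ratio scaling it turned for PSMB10 (-0.0175), PSMB3 (-0.0168) and PSMD14 (-0.00707) with Si-KDM4C#2, and for PSMG4 (-0.0398) between the siRNAs. With limma voom it turned for PSMB10 (-0.0106) and PSMB3 (-0.00527) with Si-KDM4C#2, PSME2 (0.0270) with Si-KDM4C#1, and PSMG4 (-0.0800) between the siRNAs. With the GC adjustment it turned for PSMA6 (0.0660), PSMD10 (0.0450) and PSMD5 (0.0840) with Si-KDM4C#1 and for PSMB10 (-0.269) and PSMB3 (-0.0433) with Si-KDM4C#2. Outside these named genes, 2 calls turned: that of PSMC6 with Si-KDM4C#1 went from -0.153 to 0.120 with the GC adjustment and passed the test the other way (adjusted p = 0.0411), and that of PSMD12 between the siRNAs went from 0.11 to -0.0514 with the GC adjustment and to -0.0103 with limma voom, neither passing. With 1 library left out, the value with Si-KDM4C#2 ran from -0.0730 (without Scramble replicate 3) to 0.133 for PSMB10, also turning without Si-KDM4C#2 replicate 1 (-0.0458), and from -0.107 to 0.0571 (without Scramble replicate 1) for PSMG3. That of PSME2 with Si-KDM4C#1 ran from -0.0629 to 0.00803 (without Si-KDM4C#1 replicate 1), and that of PSMG4 between the siRNAs from -0.0300 (without Si-KDM4C#2 replicate 1) to 0.0881. PSMB9, PSMB10, PSMA2, PSMA6 and PSMD9 had the fewest recovered fragments, which limits their values. PSMB8 was under 1 FPKM in every library, and its fragments did not come out as whole numbers in all libraries. Another gene on the same strand shares 68.3% of the coding bases of PSMD9. Such overlaps of PSMB10, PSMA2 and PSMA6 are given above.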
